A study of Arabidopsis thaliana with 24 samples.

Results

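The genes described here are 7 Arabidopsis thaliana loci that were named for their contrast between seeds of 2 maturation mutants, abi3-5 and lec1-1. They are AT1G67856, AT1G67855, AT1G52100, MSRB5 (AT4G04830), AT2G36770, UGT76E2 (AT5G59590) and DSI-1VOC (AT1G07645), which make 7 of the 33597 loci counted and 7 of the 16085 that passed the filter on low counts. All 7 members passed that filter, which keeps a locus with enough counts in at least 1 genotype, so a member could pass through the mutant in which it was high. The first 6 were called in opposite directions in abi3-5 and lec1-1, each against its own wild type, and DSI-1VOC was lower in both mutants but far lower in abi3-5. Those calls chose the members, so their values in the 2 mutants are given as a description, without a test.

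Seed transcriptomes were compared between genotypes whose seeds do or do not survive drying. The desiccation-intolerant mutants were abi3-5 in the Landsberg erecta (Ler) accession, lec1-1 in Wassilewskija (Ws) and fus3-3 in Columbia 0 (Col-0). The tolerant genotypes were abi3-1 in Ler, lec2-1 in Ws, and the wild types Ler, Ws and Col-0; the series design calls abi3-1 tolerant, although its sample labels say intolerant. Seeds were taken from siliques at 15, 17 and 21 days after flowering (DAF). They were collected in triplicate and pooled to 1 RNA sample per genotype and day, so the 3 days stand in for repeats. The fit has day as a term, so p-values rest on how far libraries depart from the course over days that genotypes share. They do not measure a spread between repeat samples of 1 genotype and day. Each mutant comes in its own accession and TAIR10, a genome build of Col-0, is the build named in the submitters' processing notes, so an effect of the mutated gene and one of the accession cannot be told apart when abi3-5 and lec1-1 are set side by side.

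ABI3, FUS3 and LEC2 are transcription factors with a B3 domain that bind the RY element, and LEC1 is an NF-YB subunit of the complex that binds CCAAT boxes. Together they drive the filling of the seed with storage reserves and the gain of desiccation tolerance, with LEC1 acting early in the network and ABI3 acting together with abscisic acid signalling through bZIP factors such as ABI5, which bind G-boxes and ABA-responsive elements. Strong mutants of LEC1, ABI3 or FUS3 give seeds that do not survive drying, while seeds of lec2 mutants and of the weak abi3-1 allele largely do.

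The series gave 23 distinct libraries of 1670355 to 6531673 counts, since lec2-1 had the same count at all 33597 loci at 15 DAF as at 17 DAF, and these entered as 1 library. Levels are normalized CPM, counts relative to the library total and scaled by trimmed mean of M values (TMM), whose factors were 1.48 to 1.92 in abi3-5, 1.48 to 1.70 in lec1-1 and 1.44 to 1.69 in fus3-3, against 0.486 to 0.767 in Ler, 0.527 to 1.06 in Ws and 0.524 to 0.971 in Col-0. In Ws, Ler and abi3-1 the 21 DAF library had the highest factor and the lowest MSRB6 level of its genotype, whereas in Col-0 both held for the library labelled 17 DAF, with 6.18 CPM of MSRB6 against 355 CPM at 15 DAF and 186 CPM at 21 DAF; results that rest on Col-0 are therefore also given without these doubted libraries, the ones labelled 17 and 21 DAF. The 4 embryo maturation markers were detected in every genotype and held 5.93% to 45.5% of counts in a library, while the silique wall markers held at most 0.00114%. The embryo markers held 14.4% to 20.9% in abi3-5 against 26.0% to 39.1% in Ler. They held 5.93% to 9.81% in lec1-1 against 7.07% to 32.9% in Ws, and 9.07% to 19.2% in fus3-3 against 14.2% to 45.5% in Col-0. The summed endosperm markers, nearly all of them counts of EPR1, were at 79.4 to 344 CPM in abi3-5 against 738 to 955 CPM in Ler, at 163 to 222 CPM in lec1-1 against 555 to 1443 CPM in Ws, and at 71.7 to 237 CPM in fus3-3 against 773 to 1074 CPM in Col-0. Of the 5 endosperm markers, 4 were at 0 in abi3-5 against 3 in Ler, 2 in lec1-1 against 3 in Ws, and none in fus3-3 against 4 in Col-0. The 6 seed coat markers summed to 102 to 390 CPM in abi3-5 against 127 to 166 CPM in Ler, 165 to 205 CPM in lec1-1 against 175 to 199 CPM in Ws, and 219 to 418 CPM in fus3-3 against 301 to 604 CPM in Col-0. The part of these cell types in the results below was not tested, and in whole seeds fewer cells of a type and less RNA per cell cannot be told apart. The transcripts of LEC1 (0 to 3 counts per genotype) and LEC2 (0 to 5) were too few at these ages to check the genotypes, and ABI3 transcript averaged 35.9 CPM in abi3-5 and 90.0 CPM in Ler.

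For 4 members the bases between the gene start and the next gene, up to 250, are shown because factors of this network are known to bind the letters marked in them. They were read from the RefSeq TAIR10.1 genome on the strand of each gene, 5′ to 3′ and ending at the base before the gene start, and capitals mark an RY element (CATGCA), an ABA-responsive core (ACGTG), a G-box (CACGTG) or a CCAAT box (CCAAT) on either strand. MSRB5 is chr4:2445525-2445774 plus, AT2G36770 is chr2:15416846-15417095 minus, UGT76E2 is chr5:24010689-24010899 minus, where the next gene begins, and DSI-1VOC is chr1:2368437-2368686 minus.
MSRB5: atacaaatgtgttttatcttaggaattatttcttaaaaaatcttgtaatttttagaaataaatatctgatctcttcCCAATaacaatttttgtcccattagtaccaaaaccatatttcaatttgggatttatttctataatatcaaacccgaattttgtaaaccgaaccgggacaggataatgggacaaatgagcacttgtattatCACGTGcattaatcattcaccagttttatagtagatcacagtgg
AT2G36770: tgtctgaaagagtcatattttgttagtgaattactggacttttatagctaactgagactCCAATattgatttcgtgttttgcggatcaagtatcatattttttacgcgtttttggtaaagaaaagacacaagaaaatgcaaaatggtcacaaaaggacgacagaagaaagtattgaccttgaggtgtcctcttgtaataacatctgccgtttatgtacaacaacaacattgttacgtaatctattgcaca
UGT76E2: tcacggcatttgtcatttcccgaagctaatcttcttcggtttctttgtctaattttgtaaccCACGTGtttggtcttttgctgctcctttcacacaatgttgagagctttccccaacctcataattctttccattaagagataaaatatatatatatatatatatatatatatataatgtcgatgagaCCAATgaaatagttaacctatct
DSI-1VOC: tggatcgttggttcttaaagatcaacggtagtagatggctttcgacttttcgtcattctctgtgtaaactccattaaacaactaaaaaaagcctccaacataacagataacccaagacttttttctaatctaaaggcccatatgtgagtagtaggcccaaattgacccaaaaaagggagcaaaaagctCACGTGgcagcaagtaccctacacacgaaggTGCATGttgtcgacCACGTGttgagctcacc
Over the 250 bases before the start of 27438 genes, 8.43% hold an RY element, 22.9% an ABA-responsive core, 6.49% a G-box and 46% a CCAAT box; each G-box counts as a core on both strands as well. Among these 4, DSI-1VOC alone had an RY element in its window, beside 2 G-boxes. MSRB5 and UGT76E2 each had 1 G-box, and MSRB5, UGT76E2 and AT2G36770 each had 1 CCAAT box. AT1G67856 also had 2 G-boxes in its window, which runs into AT1G67855 and AT1G67850. Of these G-boxes, 1 lies in each of those genes and none between genes. The window of AT1G67855 lies within AT1G67856 and held no match. These are matches of letters and not shown sites.

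The choice of members can be read from the whole table. The fit called 1285 genes in abi3-5 against Ler, which is 7.99% of those tested, and 3808 genes in lec1-1 against Ws, which is 23.7%, and all 7 members were among both since this is how they were chosen. Of the members, 2 were higher in abi3-5, as were 4.24% of genes, and 5 lower, as were 3.75%, and in lec1-1 4 were higher (14.5% of genes) and 3 lower (9.15%). Called in both mutants were 842 genes (5.23%), of which 836 (5.2%) moved the same way and 6 (0.0373%) the opposite way, 2 of them higher in abi3-5 and lower in lec1-1 (0.0124%) and 4 lower in abi3-5 and higher in lec1-1 (0.0249%). These 6 are the members other than DSI-1VOC. DSI-1VOC is 1 of 346 genes called lower in both (2.15%), and 1 of 16 of these (0.0995%) that were also called in the difference between the 2 effects, where 54 genes were called in all (0.336%), 11 with a positive difference (0.0684%), of which 2 are members, and 43 with a negative one (0.267%), of which 5 are. Leaving out 1 of the 12 libraries in turn, the difference call of MSRB5 held in 0 of 12 fits and that of AT2G36770 in 2 of 12. It held in 10 of 12 for UGT76E2, 11 of 12 for AT1G52100 and 12 of 12 for the others. Such fits of abi3-5, lec1-1 and their difference, here and below, reuse the libraries that chose the members. A call that held in them is therefore a description and not a test. Just inside the threshold were UGT76E2, at a log2 difference of 2.20 in abi3-5 and -3.22 in lec1-1, AT2G36770, at 2.52 in abi3-5 and -3.19 in lec1-1, and MSRB5, at -3.22 in abi3-5 and 3.08 in lec1-1. Just outside were AT1G29785, at -2.40 in abi3-5 and 2.24 in lec1-1 where it was not called, AT5G11420, at 2.73 in abi3-5 and -1.78 in lec1-1 where it was not called, and AT1G67105, at -2.19 in abi3-5 where it was not called and 3.24 in lec1-1; these 3 are named after their values were seen.

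**Figure D1:**
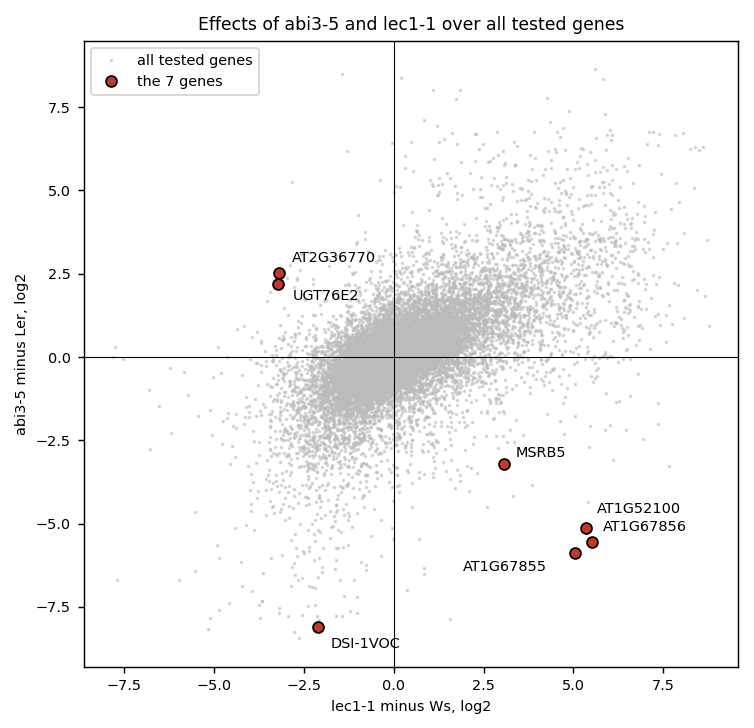
Log2 difference of abi3-5 minus Ler (vertical axis) against that of lec1-1 minus Ws (horizontal axis) for the 16085 genes tested, in grey, with the 7 members in red. Of the members, 6 lie in the quadrants of opposite sign, and DSI-1VOC lies at -8.09 in abi3-5 and -2.10 in lec1-1; the fitted value of AT1G52100 in abi3-5 rests on a group at 0 counts.

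AT1G67856 and AT1G67855 are an overlapping pair on chromosome 1. AT1G67856 (chr1:25442404-25443690, plus strand, TAIR10.1, 1 exon) encodes a protein of the RING/U-box superfamily, a fold found in E3 ubiquitin ligases, which mark proteins for breakdown. AT1G67855 (chr1:25442256-25442876, minus strand, 2 exons) encodes an uncharacterized protein. The genes share 473 bases, which is 76.2% of AT1G67855, on opposite strands. Whether the counting used strand is not given in the sources used here, so reads from the shared bases cannot be told apart. AT1G67856 runs on past the shared stretch, which ends at 25442876. How many reads fell in the shared bases is not known, and the 2 genes are read here as 1 signal.

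AT1G67856 was at 0.284, 0.229 and 0.211 CPM in abi3-5 at 15, 17 and 21 DAF, 1 count in each library, against 2.75, 9.77 and 27.8 CPM in Ler. In lec1-1 it was at 10.2, 4.88 and 30.4 CPM, against 0, 0 and 1.10 CPM in Ws. The groups did not overlap in either pair: abi3-5 lay below Ler at every age, and lec1-1 above Ws. Over the 3 days, abi3-5 had 3 counts and Ler 75, so that Ler was 54.6-fold higher (95% interval 18.0 to 271, which here and below covers counting error only). The fitted log2 difference in lec1-1 was 5.52 (SE 1.00). AT1G67855 followed the same course, with 1 count in abi3-5 and 39 in Ler (Ler 85.2-fold higher, interval 14.4 to 3450) and 160 counts in lec1-1 and 3 in Ws (23.1-fold higher in lec1-1, interval 7.78 to 113). Its abi3-5 call was lost without abi3-5 at 21 DAF (-4.34) and by limma-trend (-1.81), and its lec1-1 call without Ws at 21 DAF (4.16).

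The mutant fus3-3, which did not enter the choice, gave a test of the pair in a further genotype. AT1G67856 was at 1.41, 7.86 and 70.8 CPM in fus3-3 at 15, 17 and 21 DAF, against 0.500, 0.618 and 0.920 CPM in Col-0. Every fus3-3 library lay above every Col-0 library, and AT1G67856 rose by a log2 difference of 4.54 (SE 0.95; adjusted p = 0.00373, edgeR quasi-likelihood test with Benjamini-Hochberg adjustment, as for all adjusted p below). AT1G67855 rose as well, with 225 counts in fus3-3 and 1 in Col-0, a ratio of 55.3 (interval 9.82 to 2192; adjusted p = 0.00737). Both calls were lost without the Col-0 library of 21 DAF (adjusted p = 0.0577 and 0.0911) and without both doubted Col-0 libraries (adjusted p = 0.318 and 0.270). The tolerant mutants share their wild type with the intolerant ones and are described without a test. In abi3-1 AT1G67856 was at 1.75, 12.3 and 28.3 CPM, overlapping Ler, and in lec2-1 it was at 0.639 and 2.23 CPM, overlapping Ws.

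The wild types themselves did not share 1 level of this pair. By mean, AT1G67856 was ordered fus3-3, lec1-1, abi3-1, Ler, lec2-1, Col-0, Ws and abi3-5, from 26.7 CPM down to 0.241 CPM, and the ranges separated only between Ler and lec2-1. The level in lec1-1 thus overlapped that of Ler, and the level in abi3-5 lay within the range of Ws. The pair also rose with age, by a term fitted over the tolerant genotypes together. By that term AT1G67856 was higher at 21 than at 15 DAF by a log2 difference of 3.32 (SE 0.75; adjusted p = 0.00761) and AT1G67855 by 3.21 (SE 0.87; adjusted p = 0.0158). AT1G67856 went from 2.75 to 27.8 CPM in Ler and from 1.75 to 28.3 CPM in abi3-1, both of the Ler accession. It stayed at or below 1.10 CPM in Ws, 0.920 CPM in Col-0 and 2.23 CPM in lec2-1. Over the 23 libraries the gene closest in profile to AT1G67856 was AT1G67855 itself (Pearson r = 0.983 on log2(CPM + 2)). This is a description only, since the 2 genes share libraries and may share reads. Next in profile were AT1G24580 (0.815) and ATL2 (0.772). The gene next to the pair, AT1G67850, which lies 34 bases from AT1G67855, was called in none of fus3-3 (log2 difference 0.00), abi3-5 (-0.74) and lec1-1 (-0.96).

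**Figure D2:**
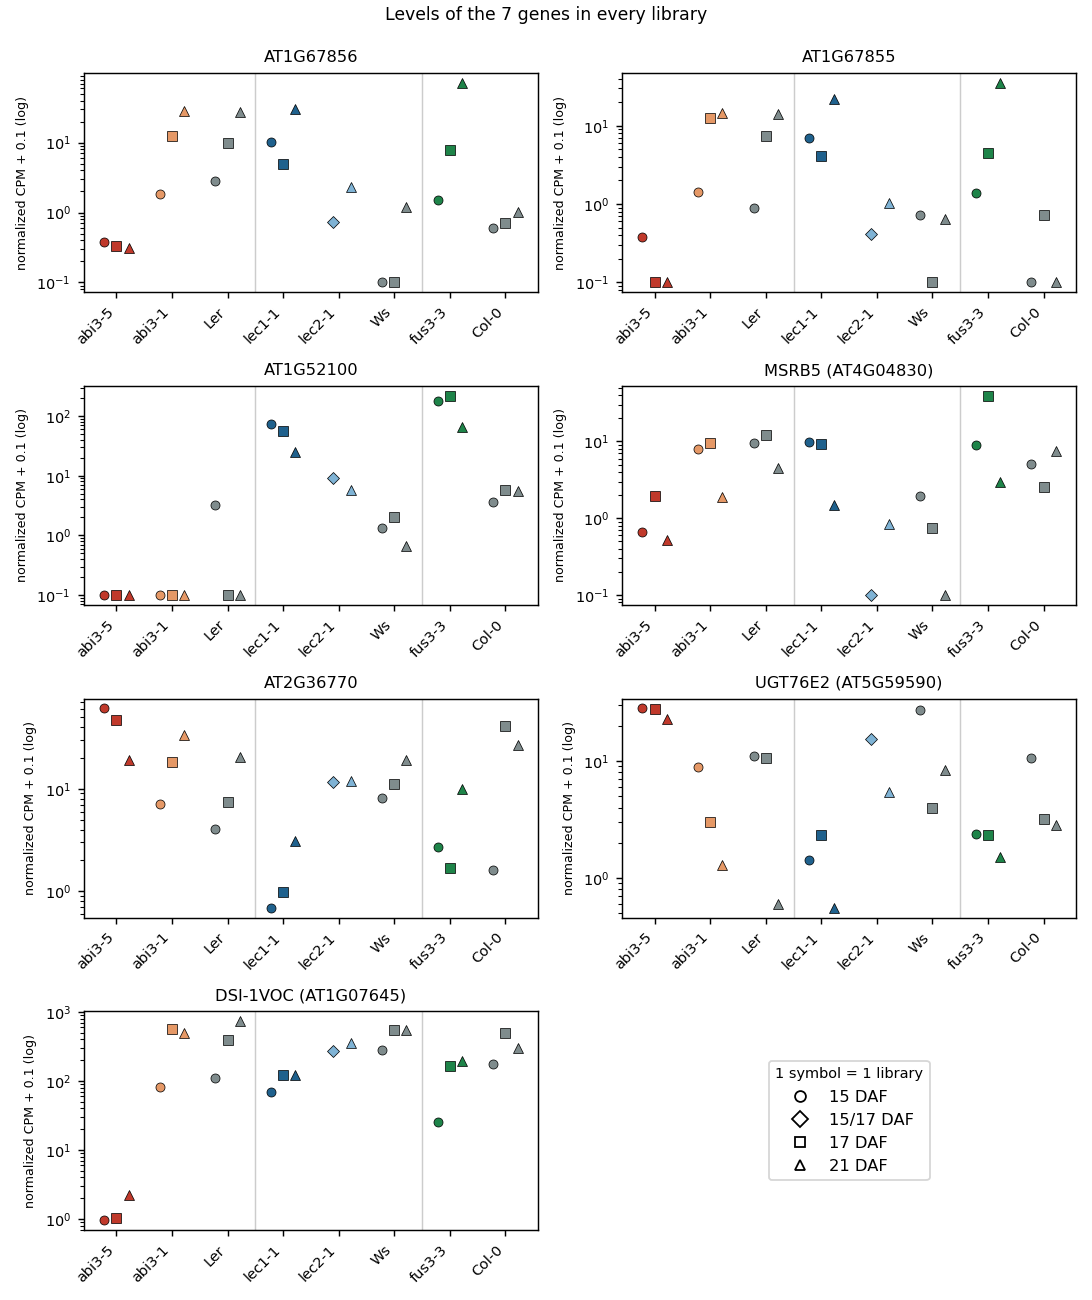
Normalized CPM + 0.1 (log axis) of each member in each library, with genotypes grouped by accession and mutants to the left of their wild type; 1 symbol is 1 library and its shape gives the day. AT1G67856 and AT1G67855 reach 13.9 CPM or more at 21 DAF in Ler, abi3-1, lec1-1 and fus3-3 and are at 2.23 CPM or less in every library of the other genotypes, whereas DSI-1VOC is at or below 2.11 CPM in abi3-5 and at 25.3 CPM or more in every other library.

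AT1G52100 (chr1:19383078-19385602, minus strand) encodes a lectin of the jacalin superfamily, proteins that bind mannose and other sugars and several of which act with myrosinases in glucosinolate breakdown. It was at 74.0, 55.3 and 25.2 CPM in lec1-1 at 15, 17 and 21 DAF, against 1.24, 1.95 and 0.552 CPM in Ws. In abi3-5 it had no count in any library, against 8 counts in the 15 DAF library of Ler (3.15 CPM) and none at the later days. The lec1-1 and Ws libraries were far apart, while abi3-5 and Ler overlapped at 0. The log2 difference in lec1-1 was 5.35 (SE 0.70). In abi3-5 the gene was at least 5.82-fold lower than in Ler, taking 3 counts over the abi3-5 libraries as the floor, and this rests on the single Ler library: without it both groups are at 0 and there is no difference to give.

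AT1G52100 was at 181, 218 and 66.0 CPM in fus3-3, against 3.50, 5.56 and 5.52 CPM in Col-0. The 2 groups were separated at every age, and the log2 difference was 4.77 (SE 0.62; adjusted p = 0.000299). It was the 1 member called in fus3-3 without each of the 6 libraries in turn, at 4.29 to 5.40, and without the doubted Col-0 libraries, at 5.93 (adjusted p = 0.00403). It was also the only member whose lec2-1 libraries, at 8.94 and 5.58 CPM, did not overlap those of Ws, where 24.1% of genes tested were so separated. The order of means was fus3-3, lec1-1, lec2-1, Col-0, Ws and Ler, with abi3-1 and abi3-5 both at 0 counts; fus3-3 overlapped lec1-1, and Ws overlapped Ler. All 3 genotypes of the Ler accession, the wild type and the tolerant mutant included, were thus at or near 0. Age made no call for it in tolerant genotypes (-0.91, SE 0.69; adjusted p = 0.351). The closest profiles were those of CER1, an enzyme of cuticular alkane synthesis (r = 0.930), AT2G33850 (0.928) and KCS5, an elongase of very long chain fatty acids (0.924). The annotated genes on each side, AT1G52090 and AT1G52110, had no counts.

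Some other jacalin lectins rose in each of the 3 intolerant mutants, and in abi3-5 some fell. Of the 38 other jacalin loci listed, 19 were tested, and 12 were higher and none lower in fus3-3, 6 higher and 3 lower in abi3-5, and 12 higher and none lower in lec1-1. Of all genes tested, 10.3% were called higher in fus3-3, 4.24% in abi3-5 and 14.5% in lec1-1, and 3.75% were called lower in abi3-5. At an unadjusted p under 0.05 none was lower in fus3-3 or lec1-1 either, nor by DESeq2 or limma-trend. Their medians were 3.89 in fus3-3, 3.39 in abi3-5 and 4.24 in lec1-1, beside medians over all genes of 0.02, 0.05 and 0.03. PBP1, a lectin that binds the myrosinase PYK10, rose by 4.97 (SE 0.67) in fus3-3, 4.55 (SE 0.68) in abi3-5 and 5.88 (SE 0.71) in lec1-1, with adjusted p between 8.82e-05 and 0.000318. JAL33 rose in fus3-3, by 7.01 (SE 0.78; adjusted p = 5.05e-05), and in abi3-5, where a ratio of 154 (interval 42.5 to 1277; adjusted p = 3.71e-05) rests on 2 counts in Ler, while in lec1-1 it was at 0.86 (adjusted p = 0.533). JAL22 rose in lec1-1, by 6.92 (SE 0.84; adjusted p = 0.000111), and in fus3-3, 56.3-fold (interval 19.2 to 274; adjusted p = 0.000686) on 3 counts in Col-0. In abi3-5 JAL22 was at 0.87 and was not called (adjusted p = 0.726). The 3 jacalin loci lower in abi3-5 were AT3G21380, NSP2, which steers glucosinolate breakdown towards nitriles, and AT1G60095; NSP2 and AT1G60095 are named after their values were seen.

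AT3G21380 was the 1 tested relative of a member that was called in the difference between the abi3-5 and lec1-1 effects. It was at 10.8, 14.2 and 3.16 CPM in abi3-5 at 15, 17 and 21 DAF, against 510, 683 and 1245 CPM in Ler. In lec1-1 it was at 776, 816 and 1284 CPM, against 1260.2, 1836 and 1800.1 CPM in Ws. The abi3-5 libraries lay far below those of Ler, whereas lec1-1 overlapped Ws. AT3G21380 fell by 6.25 on the log2 scale in abi3-5 (SE 0.76; adjusted p = 4.55e-05). The value in lec1-1 was -0.76 (adjusted p = 0.379) and that in fus3-3 -1.05 (adjusted p = 0.239), and the difference between the abi3-5 and lec1-1 effects was -5.49 (SE 0.92; adjusted p = 0.0111). None of the 60 tested relatives and regulators was called in opposite directions in the 2 mutants, nor were any at an unadjusted p under 0.05, by DESeq2 or by limma-trend.

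MSRB5 (chr4:2445775-2447086, plus strand) encodes a methionine sulfoxide reductase of the B type, an enzyme that repairs oxidized methionine in proteins. It was at 0.568, 1.83 and 0.421 CPM in abi3-5 at 15, 17 and 21 DAF, against 9.44, 12.2 and 4.47 CPM in Ler. It was at 9.64, 9.10 and 1.37 CPM in lec1-1, against 1.86, 0.650 and 0 CPM in Ws. The abi3-5 libraries all lay below those of Ler, and lec1-1 overlapped Ws through its 21 DAF library. The log2 differences were -3.22 (SE 0.89) in abi3-5 and 3.08 (SE 1.02) in lec1-1, from 12 and 48 counts in abi3-5 and Ler and 112 and 4 counts in lec1-1 and Ws. The calls of MSRB5 were fragile: leaving out any 1 of the 6 libraries ended the abi3-5 call, and leaving out 4 of the 6 in turn (lec1-1 at 15 or 17 DAF, Ws at 17 or 21 DAF) ended the lec1-1 call, at values of -3.60 to -2.94 and 2.55 to 4.53.

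In fus3-3 MSRB5 was at 8.78, 39.2 and 2.83 CPM, against 5.00, 2.47 and 7.36 CPM in Col-0. The 2 groups overlapped, and the log2 difference of 1.04 (SE 0.80) was not called (adjusted p = 0.387). With libraries scaled by their totals alone it was called, at 2.37 (adjusted p = 0.0217), where the median of all genes was 1.14. In abi3-1 it was at 7.89, 9.42 and 1.81 CPM and overlapped Ler, and in lec2-1 it was at 0 and 0.744 CPM. Its level was at least 1.37 CPM in every library of fus3-3, Ler, lec1-1, abi3-1 and Col-0, whose ranges overlapped one another, and at most 1.86 CPM in abi3-5, Ws and lec2-1. The closest profiles were weaker than for the other members: AT1G06760 (r = 0.761), AT3G52760 (0.717) and AT3G09190 (0.707).

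Of the other 12 methionine sulfoxide reductases tested, 2 were higher and 2 lower in fus3-3, 2 were higher and 2 lower in lec1-1, and none was called in abi3-5. Over all genes tested, 10.3% were called higher and 8.67% lower in fus3-3, and 14.5% and 9.15% in lec1-1. In abi3-5, at an unadjusted p under 0.05, 1 of the reductases was higher and 3 lower, as by DESeq2, while limma-trend called 1 lower. MSRB9 rose in fus3-3 by 4.45 (SE 0.85; adjusted p = 0.00311) and in lec1-1, with 356 counts against 2 in Ws, 77.2-fold (interval 21.2 to 640; adjusted p = 0.00151). MSRB7 had no counts in Col-0 or Ws and was at least 7.86-fold higher in fus3-3 (adjusted p = 0.0178) and at least 8.53-fold higher in lec1-1 (adjusted p = 0.0194). MSRB6, the gene 2347 bases to the right of MSRB5 and a relative with which reads could be shared, was lower than its wild type by mean in all 3 mutants. It was at 53.9, 15.6 and 0.843 CPM in abi3-5 against 404, 462 and 11.9 CPM in Ler, and at 61.7, 38.2 and 10.5 CPM in lec1-1 against 546, 250 and 3.59 CPM in Ws. Its log2 differences were -3.84 in abi3-5 (SE 1.20; adjusted p = 0.0530) and -2.0 in lec1-1 (SE 1.14; adjusted p = 0.213), and it fell in fus3-3 by 4.35 (SE 1.24; adjusted p = 0.0206). PMSR1, an A-type reductase, fell by 1.51 in fus3-3 (SE 0.45; adjusted p = 0.0254) and fell by 1.50 in lec1-1 (SE 0.45; adjusted p = 0.0214). The family medians were -0.32 in fus3-3, -0.45 in abi3-5 and -0.39 in lec1-1.

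AT2G36770 and UGT76E2 are the 2 members that went the other way, higher in abi3-5 and lower in lec1-1. Both encode UDP-glycosyltransferases, enzymes that attach sugars to hormones, secondary metabolites and foreign compounds. AT2G36770 (chr2:15415077-15416845, minus strand, 1 exon) sits in a row of UGT73C genes, and UGT76E2 (chr5:24008865-24010688, minus strand, 2 exons) beside UGT76E1; reads could be shared among these near copies.

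AT2G36770 was at 60.5, 46.5 and 19.0 CPM in abi3-5 at 15, 17 and 21 DAF, against 3.93, 7.33 and 20.4 CPM in Ler. It was at 0.593, 0.888 and 2.98 CPM in lec1-1, against 8.04, 11 and 19.1 CPM in Ws. The abi3-5 excess lay at 15 and 17 DAF, and at 21 DAF the abi3-5 and Ler libraries met, whereas lec1-1 lay below Ws at every age. The log2 differences were 2.52 (SE 0.77) in abi3-5 and -3.19 (SE 0.84) in lec1-1. The abi3-5 call was lost without any 1 of 5 of the 6 libraries of that pair, the exception being abi3-5 at 21 DAF, at 1.42 to 3.17 over all 6, and the lec1-1 call was lost without lec1-1 at 17 DAF (-2.96). AT2G36770 also fell in fus3-3, to 2.60, 1.59 and 9.92 CPM in fus3-3 against 1.50, 40.8 and 26.7 CPM in Col-0, a log2 difference of -2.30 (SE 0.77; adjusted p = 0.0426). The groups overlapped, since Col-0 was lowest at 15 DAF. Without both doubted Col-0 libraries the sign turned, to 0.85 (adjusted p = 0.768), and the call was also lost without Col-0 at 17 DAF (-1.29, adjusted p = 0.226) or 21 DAF (-2.48, adjusted p = 0.0769) or fus3-3 at 15 DAF (-2.37, adjusted p = 0.0778) or 17 DAF (-1.75, adjusted p = 0.211).

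The tolerant mutants overlapped their wild types, at 7.02, 18.1 and 33.1 CPM in abi3-1 and 11.5 and 11.7 CPM in lec2-1. On each day abi3-1 lay above Ler, with a ratio of counts over the 3 days of 1.74 (interval 1.25 to 2.44), which was not tested. In tolerant genotypes AT2G36770 rose with age, by 2.01 between 15 and 21 DAF (SE 0.61; adjusted p = 0.0257), and in abi3-5 it was lowest at 21 DAF. By mean it ran from 42.0 CPM in abi3-5 through Col-0, abi3-1, Ws, lec2-1, Ler and fus3-3 to 1.49 CPM in lec1-1, and each neighbouring pair in that order overlapped. Its closest profiles were those of MES5, named as a member of the methylesterase family (r = 0.846), AT1G52560, of the HSP20-like chaperone superfamily (0.838), and LTI30, a dehydrin (0.805). Its neighbours were not called in any of the 3 mutants. UGT73C2, 482 bases away, had 73 counts in all. It was at -3.32 in fus3-3 (SE 1.19; adjusted p = 0.0602), -1.75 in abi3-5 (SE 1.13; adjusted p = 0.372) and -3.69 in lec1-1 (SE 2.06; adjusted p = 0.205). AT2G36780, 518 bases away, was at -2.71 in fus3-3 (SE 1.02; adjusted p = 0.0680), 1.27 in abi3-5 (SE 1.03; adjusted p = 0.484) and -2.25 in lec1-1 (SE 1.00; adjusted p = 0.107).

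UGT76E2 was at 28.1, 27.7 and 23 CPM in abi3-5 at 15, 17 and 21 DAF, against 11, 10.6 and 0.496 CPM in Ler. It was at 1.33, 2.22 and 0.458 CPM in lec1-1, against 27.2, 3.90 and 8.29 CPM in Ws. Both pairs were separated, with abi3-5 above Ler and lec1-1 below Ws at every age. The log2 differences were 2.20 (SE 0.62) in abi3-5 and -3.22 (SE 0.68) in lec1-1; the lec1-1 call held without each of the 6 libraries in turn, and the abi3-5 call in 2 of 6, being lost without Ler at 15 DAF (2.30) or 21 DAF (1.68) or abi3-5 at 17 DAF (2.25) or 21 DAF (1.79). In fus3-3 UGT76E2 was at 2.28, 2.23 and 1.42 CPM, against 10.5, 3.09 and 2.76 CPM in Col-0. The fus3-3 libraries all lay below those of Col-0, but the log2 difference of -1.32 (SE 0.66) was not called (adjusted p = 0.171). In abi3-1 it was at 8.77, 2.90 and 1.20 CPM and in lec2-1 at 15.3 and 5.39 CPM, both overlapping the wild types.

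UGT76E2 was the 1 member that fell with age in tolerant genotypes, by 2.21 between 15 and 21 DAF (SE 0.47; adjusted p = 0.00612), a call that held without each of the 14 libraries in turn. In abi3-5 it lay between 23 and 28.1 CPM on all 3 days. Over the intolerant genotypes its change was -0.60 (SE 0.56; adjusted p = 0.680), and the test of that change against the one in tolerant genotypes gave 1.61 (SE 0.75; adjusted p = 0.555). The highest mean was in abi3-5, 26.3 CPM, followed by Ws, lec2-1, Ler, Col-0, abi3-1, fus3-3 and lec1-1, at 1.34 CPM, with overlap between all neighbours in this order. Its closest profiles were MES16, a methylesterase (r = 0.798), AT5G65380, a transporter of the MATE family (0.785), and FMO (0.756). UGT76E1, 957 bases to its left, had 5 counts in all, and AT5G59610, 211 bases to its right, was not called in any of the 3 mutants.

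The relatives of the 2 glycosyltransferases showed no opposite pair. Of 9 other UGT73 genes tested, 3 were higher in fus3-3, 4 in abi3-5 and 4 in lec1-1, and none was called lower. Over all genes tested, 10.3% were called higher in fus3-3, 4.24% in abi3-5 and 14.5% in lec1-1, and 8.67%, 3.75% and 9.15% lower. At an unadjusted p under 0.05, 2 UGT73 genes were lower in fus3-3, none in abi3-5 and 1 in lec1-1. DESeq2 called 2 lower in fus3-3, and limma-trend none in any. UGT73B4 rose by 4.73 (SE 0.73) in fus3-3, 3.38 (SE 0.63) in abi3-5 and 3.04 (SE 0.65) in lec1-1, with adjusted p of 0.000506 to 0.00294. UGT73B5 rose by 4.77 (SE 0.79; adjusted p = 0.000952) in abi3-5 and 3.76 (SE 0.73; adjusted p = 0.00159) in lec1-1, and in fus3-3 48.6-fold (interval 8.63 to 1930.2; adjusted p = 0.00155) on 1 count in Col-0. DOGT1, a glucosyltransferase of brassinosteroids and of the toxin deoxynivalenol, rose at least 18.9-fold in fus3-3 (adjusted p = 0.00127), where Col-0 had no counts, and 14.0-fold in abi3-5 (interval 3.70 to 118; adjusted p = 0.0286). UGT73C1 rose at least 12.7-fold in lec1-1 (adjusted p = 0.00259). The UGT73 medians were 2.12 in fus3-3, 1.95 in abi3-5 and 2.79 in lec1-1. Of 8 other UGT76 genes tested, AT5G05890 was higher and AT5G38040 lower in both fus3-3 and lec1-1, and none was called in abi3-5, where 1 was higher at an unadjusted p under 0.05 and none by DESeq2 or limma-trend. AT5G38040 fell by 2.50 in fus3-3 (SE 0.61; adjusted p = 0.00917) and fell by 2.26 in lec1-1 (SE 0.63; adjusted p = 0.0143), and was at 0.18 in abi3-5 (SE 0.83; adjusted p = 0.925). AT5G05890 was 57.7-fold higher in fus3-3 (interval 10.3 to 2289; adjusted p = 0.00153) and 31.7-fold in lec1-1 (interval 8.61 to 264; adjusted p = 0.00116). The UGT76 medians were -0.62 in fus3-3, 0.39 in abi3-5 and -0.41 in lec1-1.

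**Figure D3:**
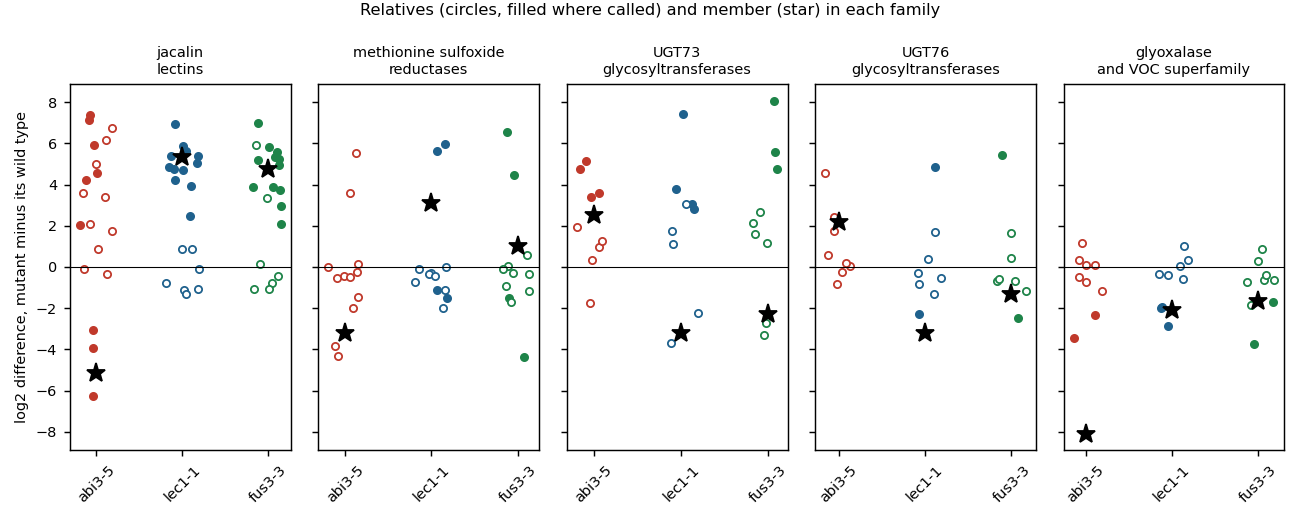
Log2 difference of each mutant minus its wild type for the tested relatives of the members, by family, as circles that are filled where the gene was called, and for the member itself as a star. The jacalin member stands at -5.12 in abi3-5, fitted on 0 counts, while 6 other jacalins were called higher there. The UGT73 member stands below 0 in lec1-1 and fus3-3, where no other UGT73 gene was called lower. Without a call, UGT73C2 (-3.69 in lec1-1 and -3.32 in fus3-3) and AT2G36780 (-2.25 and -2.71) stand below 0 there too. The remaining UGT73 genes stand above 0 in both.

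DSI-1VOC (chr1:2367437-2368436, minus strand, 3 exons) encodes a protein of the vicinal oxygen chelate (VOC) superfamily, the fold of glyoxalase I enzymes, and is annotated as desiccation-induced. It was at 0.852, 0.916 and 2.11 CPM in abi3-5 at 15, 17 and 21 DAF, against 108, 389 and 733 CPM in Ler. It was at 69.0, 123 and 122 CPM in lec1-1, against 281, 546 and 541 CPM in Ws. All libraries of both mutants lay below those of the wild type, but the abi3-5 libraries held 3 to 10 counts where those of lec1-1 held 465 to 553. The log2 differences were -8.09 (SE 0.66) in abi3-5 and -2.10 (SE 0.48) in lec1-1, with a difference between the 2 effects of -5.99 (SE 0.76), values that chose the member. The calls held without each of their libraries in turn, but that in lec1-1 was lost with libraries scaled by their totals (-0.80) and without the term for day (-2.13). The transcript of abi3-1 was at 81.1, 556 and 497 CPM and overlapped Ler. Read against abi3-1, abi3-5 stood at -7.94 (SE 0.66), also given as a description.

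DSI-1VOC was lower in fus3-3 too. It was at 25.3, 162 and 193 CPM in fus3-3, against 176, 499 and 300 CPM in Col-0. The groups overlapped by the 21 DAF library of fus3-3 and the 15 DAF library of Col-0, and at each day fus3-3 lay below Col-0. It fell by 1.64 on the log2 scale (SE 0.48; adjusted p = 0.0236). That call was lost without either Col-0 library of 15 DAF (-1.47, adjusted p = 0.0658) or 17 DAF (-1.51, adjusted p = 0.0529), without fus3-3 at 15 DAF (-1.27, adjusted p = 0.0905) or 17 DAF (-1.80, adjusted p = 0.0681), and without both doubted Col-0 libraries (-1.99, adjusted p = 0.103). In lec2-1 it was at 275 and 356 CPM and overlapped Ws. The order of means ran from 456 CPM in Ws through Ler, abi3-1, Col-0 and lec2-1, then fus3-3 and lec1-1, and last abi3-5 at 1.29 CPM; the ranges separated between lec2-1 and fus3-3 and again above abi3-5. With age it rose in tolerant genotypes by 1.67 (SE 0.42; adjusted p = 0.0112). Its profile was closest to those of HVA22B (r = 0.981), AT2G25890, of the oleosin family (0.976), and EM1, a late embryogenesis abundant protein (0.970).

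Some other glyoxalase and VOC genes fell in each mutant. Of 9 tested, 2 were lower in fus3-3, 2 in abi3-5 and 3 in lec1-1, and none was called higher. Over all genes tested, 8.67% were called lower in fus3-3, 3.75% in abi3-5 and 9.15% in lec1-1. At an unadjusted p under 0.05, 1 of the 9 was higher in abi3-5 and 1 in lec1-1, and DESeq2 called 1 higher in lec1-1. The medians were -0.64 in fus3-3, -0.47 in abi3-5 and -0.41 in lec1-1. GLYI8 fell in all 3, by 1.69 in fus3-3 (SE 0.58; adjusted p = 0.0460), fell by 3.47 in abi3-5 (SE 0.61; adjusted p = 0.00169) and fell by 1.94 in lec1-1 (SE 0.57; adjusted p = 0.0198). GLYI7 fell by 3.75 in fus3-3 (SE 0.65; adjusted p = 0.00114) and fell by 2.87 in lec1-1 (SE 0.62; adjusted p = 0.00313), and was at -0.73 in abi3-5 (adjusted p = 0.477). GLYI4 fell by 2.35 in abi3-5 (SE 0.66; adjusted p = 0.0352) and fell by 2.0 in lec1-1 (SE 0.66; adjusted p = 0.0342), and was at -1.85 in fus3-3 (adjusted p = 0.0558). Of the genes beside DSI-1VOC, AT1G07650 was not called, and AT1G07660, a histone gene 396 bases away, fell by 2.02 in abi3-5 (SE 0.45; adjusted p = 0.00987), to 12.5, 6.64 and 4.85 CPM in abi3-5 against 29.9, 33.4 and 32.3 CPM in Ler. AT1G07660 was at -0.13 in lec1-1 (adjusted p = 0.859) and 0.11 in fus3-3 (adjusted p = 0.891).

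**Figure D4:**
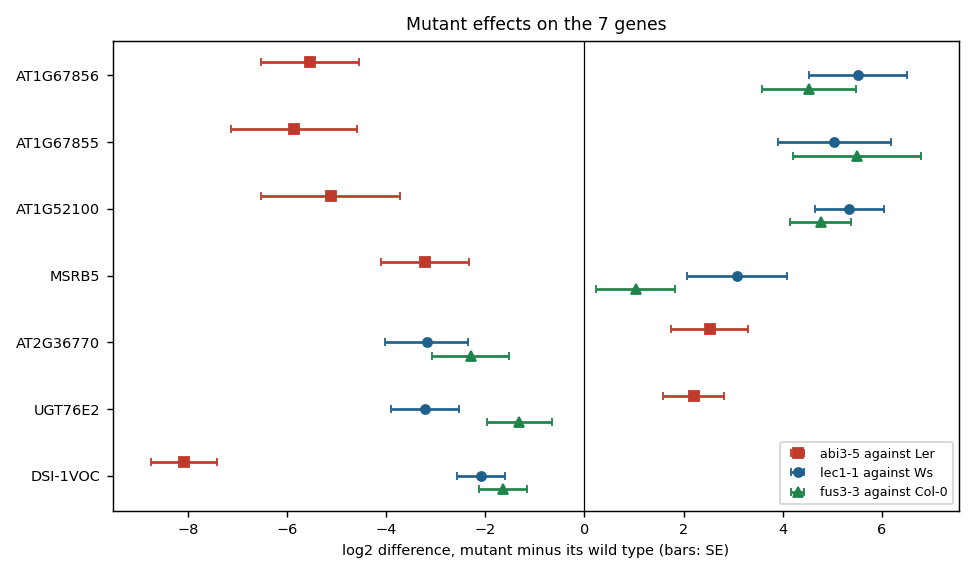
Log2 difference of each mutant minus its wild type (horizontal axis) for each member, with abi3-5 as squares, lec1-1 as circles and fus3-3 as triangles. Bars are SE, worked back from the F value of the test. The fus3-3 value lies on the same side of 0 as the lec1-1 value for all 7 members, and on the other side from the abi3-5 value for the 6 of opposite sign. MSRB5 and UGT76E2 were not called in fus3-3, and without the doubted Col-0 libraries the AT2G36770 value turned to 0.85. Fitted values on groups of 0 to 3 counts are not bounds.

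Across the members, fus3-3 had the sign of lec1-1 in all 7, except that AT2G36770 turned without the doubted Col-0 libraries. MSRB5 (1.04) and UGT76E2 (-1.32) were not called in fus3-3. The share of all genes with the same sign in fus3-3 and lec1-1 was not computed, so the shared sign is not shown to be particular to the members. In the fit with all libraries, 5 of 7 were called in fus3-3 against Col-0, where 19% of all genes tested were called: AT1G67856, AT1G67855 and AT1G52100 higher and AT2G36770 and DSI-1VOC lower, against 10.3% of genes called higher and 8.67% called lower. Without both doubted Col-0 libraries only AT1G52100 of the 7 stayed called, and the genes called in all fell to 460, against 3057 with them. The libraries of fus3-3 and Col-0 did not overlap for 4 of 7 members, against 26.8% of genes. AT1G67856 and AT1G67855, read as 1 signal, are each counted as a member in these counts and in those that follow. The libraries of abi3-5 and Ler did not overlap for 5 of 7 members (22.4% of genes) and those of lec1-1 and Ws for 6 of 7 (40.6%), which the choice of members used. The libraries of the tolerant allele abi3-1 overlapped those of Ler for all 7 members (3.7% of genes did not overlap).

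With age, 5 of 7 members changed between 15 and 21 DAF in the tolerant genotypes, where 23.2% of all genes did. AT1G67856 and AT1G67855, read as 1 signal, are each counted among these 5 and in the counts below. AT1G67856, AT1G67855, AT2G36770 and DSI-1VOC rose, against 9.76% of genes, and UGT76E2 fell, against 13.4%. None of the calls was lost without both doubted Col-0 libraries. Leaving out single libraries ended the call of AT1G67855 (abi3-1 at 15 DAF, or the 15 or 21 DAF library of Ler, with adjusted p of 0.0744 to 0.102), of AT2G36770 (6 of 14 libraries, 0.0616 to 0.0928) and, without abi3-1 at 15 DAF, of AT1G67856 (0.0567) and DSI-1VOC (0.0543). In the intolerant genotypes edgeR called none of the 7 at 21 against 15 DAF, where 0.92% of all genes were called (0.286% higher and 0.634% lower). Of the 7, 5 had an unadjusted p under 0.05, for which the share over all genes was not computed. DESeq2 called 3 of the 7, and 676 of the 16085 genes tested. Without both doubted Col-0 libraries edgeR called AT1G67856 (2.93, adjusted p = 0.0175) and AT1G67855 (2.71, adjusted p = 0.0284) there, as it did with the Col-0 days exchanged (adjusted p = 0.0123 and 0.0206), and 1038 genes in all in place of 148. The values there were 2.88 for AT1G67856 (SE 0.77; adjusted p = 0.0774), 2.65 for AT1G67855 (SE 0.80; adjusted p = 0.109) and 1.70 for DSI-1VOC (SE 0.56; adjusted p = 0.147), the 3 that DESeq2 called. MSRB5 was at -2.0 (SE 0.78; adjusted p = 0.227), AT1G52100 at -1.49 (SE 0.63; adjusted p = 0.282) and AT2G36770 at 0.91 (SE 0.75; adjusted p = 0.630). No difference between intolerant and tolerant genotypes in the change with age was called for any member (adjusted p of 0.555 to 0.993), with 1 at an unadjusted p under 0.05, UGT76E2, and none by DESeq2.

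ABI3 transcript fell in fus3-3 by 1.60 (SE 0.49; adjusted p = 0.0286) and in lec1-1 by 1.79 (SE 0.49; adjusted p = 0.0138), and was at -1.32 in abi3-5 (SE 0.49; adjusted p = 0.106). FUS3 transcript fell by 3.69 in lec1-1 (SE 1.13; adjusted p = 0.0242), with 24 counts in lec1-1 and 78 in Ws. In fus3-3 it had 223 counts and in Col-0 74, a log2 difference of -1.75 (SE 1.02; adjusted p = 0.237) after scaling and the term for day. Of the 3 regulators tested, 1 was lower in fus3-3, none was called in abi3-5 (2 lower at an unadjusted p under 0.05, 1 by DESeq2 and none by limma-trend) and 2 were lower in lec1-1, and none was called higher in any, by any of the 3 tools or at an unadjusted p under 0.05.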

How the data were processed

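Seed RNA of 8 genotypes was measured at 15, 17 and 21 days after flowering, 1 pooled sample each; per the labels' protocols, RNA was amplified as aRNA and sequenced on SOLiD. The authors deposited raw counts per locus and a table of normalized signal, which holds 22010 loci; the submitters' processing notes name TAIR10 and edgeR, and the aligner, the counter and the use of strand are not given in the sources used here. Only the raw counts enter the main results; the deposited signal serves the limma-trend alternative, as log2(signal + 2).

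Counts were fitted in R 4.3.3 with edgeR 4.0.16 (filterByExpr with a minimum count of 10, TMM, quasi-likelihood test, Benjamini-Hochberg over all 16085 genes, called at an adjusted p under 0.05) over all 23 distinct libraries, with genotype and day as terms. Time tests used separate day terms for tolerant and intolerant genotypes. Each SE was worked back from the test, as the size of the log2 difference over the square root of its F value, and was not estimated separately. The lec2-1 counts listed alike under 15 and 17 DAF entered as 1 library, placed between those days. The day, given by the labels, pairs the libraries across genotypes and is the replicate block in the main model. DESeq2 1.42.0 and limma 3.58.1 gave alternatives, and the scripts were tested on simulated data. Totals of 1670355 to 6531673 counts limit members with few counts. A fold against a group at 0 uses a floor of 3 counts over the group, and ratios on 1 to 3 counts carry exact 95% intervals for counting error only.

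The members and gene lists were chosen with earlier results of these data known. Named beside the members are relatives and regulators called in at least 1 mutant, up to 4 per list by adjusted p, the nearest annotated genes, and the 3 genes with a mean of at least 20 counts closest in profile to each member; exceptions are named as such. Gene models and sequences are from RefSeq TAIR10.1. The stretch upstream of 1 member is not reported here.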

Additional observations from a re-analysis of the deposited data

Results flagged for a closer look

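AT3G21380, a jacalin relative of AT1G52100, is listed here because its effect differed between the 2 mutants by a test of the difference itself: the abi3-5 effect minus the lec1-1 effect was -5.49 on the log2 scale (SE 0.92; adjusted p = 0.0111, edgeR), with -6.25 in abi3-5 against Ler and -0.76 in lec1-1 against Ws. The accessions differ between the 2 pairs, and mutation and accession cannot be told apart.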

How the results depend on the processing

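The number of genes called depended on scaling and on single libraries. For fus3-3 against Col-0, 3057 genes were called. Library totals gave 5903 (5556 higher, 347 lower), the fit with no day term and so no replicate block 1863, and the fit without the doubted Col-0 libraries of 17 and 21 DAF 460; leaving out 1 library gave 1159 (without fus3-3 at 17 DAF) to 3300, with 1581 without Col-0 at 21 DAF. For abi3-5 against Ler (1285), library totals gave 8029 (7808 higher, 221 lower), DESeq2 1950, no replicate block 716, and exchanged Col-0 days 1939; leaving out 1 library gave 451 (without abi3-5 at 21 DAF) to 1752, with 688 to 786 without abi3-5 at 17 DAF or any Ler library. For lec1-1 against Ws (3808), library totals gave 6561 (6383 higher, 178 lower), and leaving out 1 library 1889 (without lec1-1 at 17 DAF) to 4325, with 2192 and 2432 without Ws at 17 and 21 DAF. For the difference between the 2 effects (54), DESeq2 gave 234, no replicate block 15, limma-trend 162, Col-0 left out 111 and exchanged 126, and leaving out 1 library 14 (without Ler at 15 DAF) to 108 (without Col-0 at 17 DAF), with 19 to 35 without abi3-5 at 17 DAF, Ler at 17 DAF or any lec1-1 or Ws library. For 21 against 15 DAF in tolerant genotypes (3730), exchanged Col-0 days gave 5925, and leaving out 1 library 1547 (without Ler at 21 DAF) to 5157, with 1607 to 1871 without abi3-1 at 15 or 21 DAF, Ws at 21 DAF or Col-0 at 15 DAF; library totals split the calls as 2139 higher and 1624 lower, against 1570 and 2160. In intolerant genotypes (148), library totals gave 296, no filter on low counts 517, DESeq2 676, Col-0 left out 1038 and exchanged 1121; leaving out 1 library gave 9 (without fus3-3 at 21 DAF) to 799 (without Col-0 at 17 DAF), and most libraries moved this small count by over 1.5 times. Under library totals the median log2 difference of all genes was 1.14 in fus3-3, 1.49 in abi3-5, 1.21 in lec1-1 and 0.31 with age in tolerant genotypes, against 0.02, 0.05, 0.03 and -0.05 under TMM. The cause was not tested.

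Of the members' values, 652 kept their direction and side of the threshold under the alternatives, 99 lost a call, 10 gained one and 2 reversed. Both reversals were of AT2G36770: 0.85 in fus3-3 against Col-0 without the doubted Col-0 libraries of 17 and 21 DAF, and -0.15 at 21 against 15 DAF in intolerant genotypes without fus3-3 at 21 DAF, where leaving out 1 library gave -0.15 to 1.99. With the replicate block dropped, DSI-1VOC lost its fus3-3 call (-1.36, adjusted p = 0.247), as did AT2G36770 (-2.31, adjusted p = 0.10); library totals ended both as well (-0.72 and -1.44). Dropping the block also ended the abi3-5 calls of AT1G52100, MSRB5, AT2G36770 and UGT76E2, the lec1-1 calls of MSRB5 and DSI-1VOC, and the difference calls of AT1G67856, AT1G67855, MSRB5, AT2G36770 and UGT76E2. Other calls lost were, in abi3-5, AT1G67855, AT1G52100 and AT2G36770 by limma-trend, MSRB5 with library totals and AT2G36770 in a robust fit, in lec1-1, AT2G36770 and DSI-1VOC with library totals, in fus3-3, AT2G36770 by limma-trend, and in the difference, MSRB5 with upper quartile scaling. With Col-0 days exchanged, all 5 fus3-3 calls held. In the jacalin list, 6 genes were called higher in abi3-5 by edgeR, 11 by DESeq2 and 10 by limma-trend. A leave-one-out fit of a member was run for the libraries of its own comparison. The limma-trend and no-day fits were not made for the comparisons over age. Members with few counts, such as AT1G67855 and AT1G52100 in abi3-5, are limited by depth.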
